A study of Mus musculus with 76 samples.

Results

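Tumours that grew on the introduced kinase MAP3K7 were compared with tumours that grew on reintroduced HER2. Of 76 arrays, 12 enter this comparison, the 6 labelled with MAP3K7 as the introduced gene and the 6 labelled with HER2. The other 64 arrays of the series' 13 groups served to choose probe sets, filter genes, centre values and fit the model with its spread. Group means were also ranked among the 13 groups. All tumours came from C57BL/6 mice, from a model whose original driver was a doxycycline-inducible HER2(V659E) oncogene, and in both groups that driver had been shut off by withdrawal of doxycycline before the gene was introduced. Both groups are labelled as having no cachexia, and each holds 2 arrays at each of T1, T2 and T3, labels that are not defined in the sources used here. A p-value sets a difference against the spread of arrays within groups, pooled over the 13 groups and with similar arrays paired as described below. Part of that spread may be technical, since the labels call the arrays biological replicates without naming animals or tumour lines. For the same reason the effect of the introduced gene and a difference between tumours or cell lines cannot be told apart.

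MAP3K7, also called TAK1, is a kinase that receptors for TNF, interleukin-1, Toll-like ligands and TGF-beta activate through TAB and TRAF proteins. It phosphorylates the IKK complex, which frees NF-kB, and the MAP2 kinases above JNK and p38, which activate AP-1. HER2 (Erbb2) is a receptor tyrosine kinase of the epidermal growth factor receptor family that signals mainly through RAS-ERK and PI3K-AKT and is a driver of mammary cancer.

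Values were on the log2 scale. The medians of the arrays ranged from 5.45 to 5.56, the level of control probe sets against a bacterial gene was 2.95, and precision is limited by the number of arrays. The arrays of each group were matched into 3 pairs by the medians of their 19 autosomes, and the rest of their expression was then compared. The MAP3K7 pairs are T1 replicate 1 with T2 replicate 1 (pair A), T1 replicate 2 with T3 replicate 1 (pair B) and T2 replicate 2 with T3 replicate 2 (pair C). The HER2 pairs are T1 replicate 1 with T2 replicate 2 (pair D), T1 replicate 2 with T3 replicate 2 (pair E) and T2 replicate 1 with T3 replicate 1 (pair F). Expression with the autosome medians removed correlated at r = 0.832, 0.887 and 0.702 within pairs A, B and C and at -0.212 to 0.263 between MAP3K7 arrays of different pairs. Within the HER2 pairs D, E and F r was 0.772, 0.811 and 0.444, and between them 0.163 to 0.632, so pair F was not set apart by it. The pairs were a random block in the limma fit (correlation 0.628), and counts that take the arrays as separate replicates stand beside it.

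Endogenous mouse transcripts are what the probe sets for Map3k7 and Erbb2 read with certainty, and whether they read the introduced constructs is not known, so they do not check the labels. On the brightest Map3k7 probe set the mean was 8.06 ± 0.21 in MAP3K7 and 8.61 ± 0.20 in HER2 (SD, 6 arrays each), and the fitted difference, -0.55 ± 0.18 (log2, SE), passed with a limma adjusted p = 0.0289. That call ended without pair A, B, D or E. On the other Map3k7 probe sets the means were 6.29 against 6.71, 6.46 against 6.81, 7.57 against 7.55 and 5.61 against 5.56, and on the last, below the control level, 2.65 against 2.48. Erbb2, with 1 probe set, was at 6.73 ± 0.20 in MAP3K7 and 6.87 ± 0.23 in HER2. The tissue label is tumour. The simple-epithelium keratin Krt8 (12.21 against 12.93, means of MAP3K7 and HER2) and the epithelial adhesion protein Epcam (7.19 against 7.03) were above the control level in both groups, as was the mesenchymal filament protein Vim (13.37 against 13.46).

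Of 13868 genes tested, 2531 (18.3%) were called at an adjusted p under 0.05, 1121 (8.08%) higher and 1410 (10.2%) lower in MAP3K7. With arrays as separate replicates 5056 genes (36.5%) were called, and in a fit of the 12 arrays alone 686 were. In 1949 genes (14.1%) the 6 MAP3K7 arrays did not overlap the 6 HER2 arrays, and 1532 of these were called, 655 higher and 877 lower. A difference of 2-fold or more was found in 474 called genes, 299 higher and 175 lower. Higher genes were 44.3% of those called. They were 25.9% once arrays were centred on their medians, a scaling that moved the median difference of all genes from -0.02 to -0.11. HER2 had the lowest mean of the 13 groups in 523 of the genes called higher, and the highest mean in 700 of those called lower. MAP3K7 had the highest mean in 447 and the lowest in 484. Genes called for a difference between these groups tend to such ranks by that choice.

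**Figure D1:**
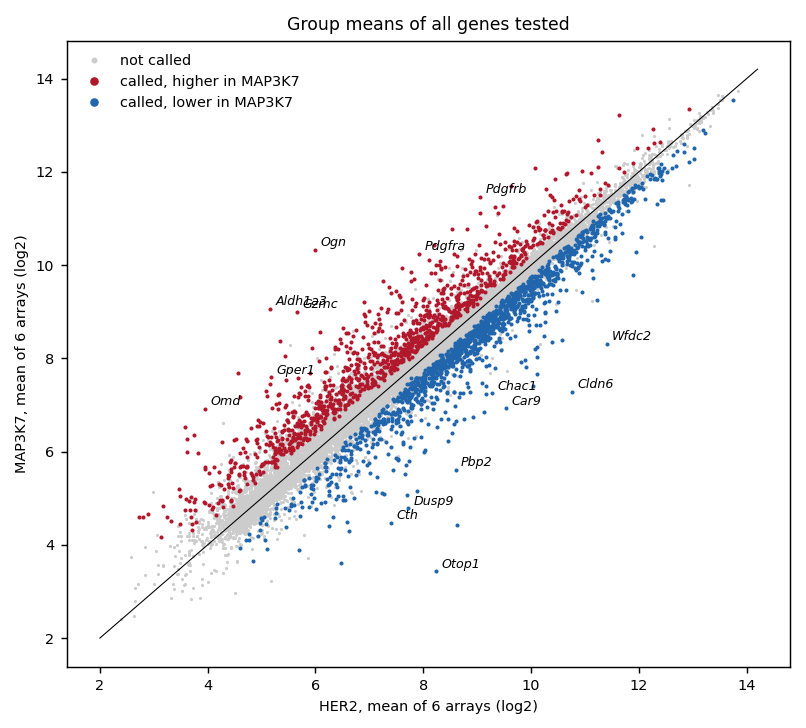
Mean expression (log2) of each of the 13868 genes tested in the 6 HER2 arrays (horizontal axis) and the 6 MAP3K7 arrays (vertical axis), with the line of equal means. Red points are the 1121 genes called higher and blue points the 1410 called lower in MAP3K7; Ogn and Otop1 lie farthest from the line among the genes named by rank.

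Genes were ranked by difference among those called whose groups do not overlap, so wider differences with overlap, such as those of Aldh1a3, Scg2 and Dlk1, stand outside the 15 highest and 15 lowest. Matrix proteins and fibroblast markers were among the 15 highest. Osteoglycin (Ogn, chromosome 13, 49608015 to 49624501 on GRCm38.p6), a small leucine-rich proteoglycan of connective tissue, was at 11.49 and 11.68 in pair A, 8.38 and 8.07 in pair B and 11.20 and 11.13 in pair C. The HER2 arrays ran from 5.08 to 7.80, so every MAP3K7 array was above every HER2 array, by the least in pair B. The difference was 4.33 ± 0.88 (SE; log2), a 20.2-fold change with a limma adjusted p = 0.00035. Omd (chromosome 13, 49582462 to 49592612), a related proteoglycan whose gene neighbours Ogn, was at 9.04 and 9.54 in pair A and at 5.57 to 5.82 in pairs B and C, against 3.71 to 4.38 in HER2 (difference 2.96 ± 0.75). Only pair A was far above the rest for Omd, and without it the call ended.

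The receptors for platelet-derived growth factor, which mark fibroblasts and pericytes, rose together. Pdgfra was at 11.64 and 11.57 in pair A, 8.66 and 9.21 in pair B and 10.28 and 10.06 in pair C, against 7.44 to 8.34 in HER2, a difference of 2.32 ± 0.41 (adjusted p = 7.37e-05). Pdgfrb was at 11.42 and 11.48 in pair A, 11.08 and 11.03 in pair B and 11.98 and 11.75 in pair C, against 8.54 to 9.59, a difference of 2.40 ± 0.38 (adjusted p = 1.31e-05). Pdgfra varied more between the MAP3K7 pairs than Pdgfrb. Loxl1, which crosslinks elastin, was at 10.06, 10.49 and 10.71 (lowest, median and highest array) in MAP3K7 and 7.74, 8.28 and 8.70 in HER2. Ltbp2, a matrix protein of the latent TGF-beta binding family, was at 8.72, 9.75 and 10.74 against 6.50, 7.07 and 8.17. The tropomyosin Tpm2, of contractile cells, was at 12.06 and 12.13 in pair A and 9.96 to 10.32 in the other pairs, against 8.04 to 9.23 in HER2. The IGF-binding protein Igfbp5 was higher by 2.30 ± 0.62 and the smooth muscle actin Acta2 by 2.00 ± 0.41. All of these genes except Omd stayed called with each of the 6 pairs left out in turn. Under 1 of 33 alternative settings Tpm2 was not called (limma adjusted p = 0.415).

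Of 21 fibroblast and matrix markers, 11 rose and none fell, against 8.08% of all genes higher. The list's median difference was 1.06 (all genes -0.02), and all 21 members had a positive difference. Besides Ogn, Loxl1 and the PDGF receptors, the collagens Col1a1 (1.32), Col5a1 (1.06), Col5a2 (0.86), Col6a1 (1.41) and Col6a2 (1.31) rose, as did Postn (1.45), a matrix protein of activated fibroblasts, and the fibroblast protease Fap (1.20). The proteoglycans Dcn (0.56, adjusted p = 0.328) and Lum (0.83, adjusted p = 0.232) did not pass. Relative to all 76 arrays, the list mean was 0.91 and 0.78 in pair A, 0.52 and 0.72 in pair B and 0.29 and -0.03 in pair C, and -1.14 to -0.32 in HER2, so the array means did not overlap. In bulk tumour RNA, more cells of a type and more RNA per cell cannot be told apart. Leaving out any 1 pair gave 9 to 15 members higher and none lower.

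TGF-beta response genes and genes of epithelial-mesenchymal transition were in part higher as well. Of 19 TGF-beta response genes 9 rose (47.4%, against 8.08% of all genes) and none fell, with a median of 0.78. Without pair B 3 rose and 2 fell and the median was 0.39. The inhibitory Smad6 was at 9.01 and 8.81 in pair B and 5.19 to 5.53 in the other MAP3K7 arrays, against 4.47 to 5.08 in HER2, and its difference of 1.69 ± 0.40 was 0.49 without pair B. Id3, a target of BMP and TGF-beta signals, was also highest in pair B (11.78 and 11.62), with 10.03 and 9.94 in pair A, 10.47 and 10.21 in pair C and 8.68 to 9.74 in HER2. The ligand Tgfb2 was highest in pair A (8.19 and 8.33) and within the range of HER2 in pair C (5.80 and 5.41 against 4.32 to 6.16). Tgfb3 was higher by 1.06 ± 0.26. Of the 4 named members, Ltbp2 kept its call without each pair, Smad6 and Id3 lost theirs without pair B (adjusted p = 0.286 and 0.0712, the highest over the pairs left out), and Tgfb2 lost its call without pair A, D or E.

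Of 19 transition genes 8 rose (42.1%, against 8.08% of all genes) and none fell, with a median of 0.22. In 7 of the 8, all but Snai1, the groups did not overlap, as in 1532 of all 2531 called genes. The groups did not overlap in Vim either, which was lower in MAP3K7 and not called. The repressor of epithelial genes Snai2 was at 9.75 and 10.01 in pair A, 10.58 and 10.68 in pair B and 9.50 and 9.43 in pair C against 7.81 to 8.53 in HER2, a difference of 1.76 ± 0.31 (adjusted p = 6.62e-05). The gelatinase Mmp2 (1.68 ± 0.43), the mesenchymal cadherin Cdh11 (1.62 ± 0.40) and the collagen crosslinker Lox (1.41 ± 0.39) rose too, with Mmp14 (0.91), Snai1 (0.74), Sparc (0.66) and Fn1 (0.41). Vim, Zeb1, Zeb2 and Twist1 did not pass, at differences of -0.09, 0.18, 0.22 and 0.17. Without pair D the call of Lox ended (adjusted p = 0.0602, the highest over the pairs left out). Several of these genes are also expressed by fibroblasts, whose markers were higher in the same arrays, and the part of those cells in the difference was not tested.

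Granzymes, the proteases that killer lymphocytes release, made up 3 of the 15 highest genes in that ranking. Gzmc (chromosome 14, 56231397 to 56241647) was at 7.59 and 7.40 in pair A, 10.21 and 9.24 in pair B and 9.43 and 10.14 in pair C, against 5.07 to 6.33 in HER2, a difference of 3.35 ± 0.81 (adjusted p = 0.00222). Gzmf was at 6.63 and 5.67 in pair A, 7.27 and 8.09 in pair B and 9.58 and 8.89 in pair C, against 3.76 to 5.57 (difference 3.12 ± 1.08). Gzmb was at 5.81 and 5.52 in pair A, 9.85 and 7.95 in pair B and 7.55 and 7.97 in pair C, against 4.75 to 5.44 (difference 2.29 ± 0.66). The 3 genes were lowest in pair A among the MAP3K7 arrays. They lie near each other on chromosome 14 in a family of similar genes, and whether their probe sets also read other members was not tested. Gzmc kept its call without each pair, Gzmb lost it without pair B and Gzmf without any of 5 pairs (adjusted p up to 0.168).

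Of 12 T cell and NK cell markers 2 rose, Gzmb and the granule protein Nkg7 (1.19 ± 0.43), and none fell. Their share was 16.7%, against 8.08% of all genes higher and 18.3% called in either direction. The median of the list was 0.43, and with arrays as separate replicates 7 members rose. The array means of the list were -0.19 to 0.81 in MAP3K7 and -0.56 to -0.39 in HER2 and did not overlap. The T cell receptor subunits Cd3d and Cd3e (-0.17 and -0.04) and the coreceptors Cd8a (-0.03) and Cd4 (0.34) did not pass. The NK cell receptors Klrd1 (1.48, adjusted p = 0.0574) and Ncr1 (0.77, adjusted p = 0.145) and the protease Gzma (2.21, adjusted p = 0.0543) had positive differences that did not pass. Of 7 B cell markers 2 rose (28.6%, against the same 8.08%) and none fell: the B cell receptor subunit Cd79b (0.70) and the adaptor Blnk (1.18). Calls of Nkg7, Cd79b and Blnk each ended with 3 or more of the pairs left out.

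Macrophage markers were higher in pair C. Of 22 members 6 rose (27.3%, against 8.08% of all genes) and none fell, with a median of 0.51. The list mean was 0.83 and 0.89 in pair C, -0.09 and -0.23 in pair A and -0.43 in both arrays of pair B, against -0.57 to -0.21 in HER2. Without pair C 1 member was called and the median was 0.18, and 2 to 3 were called without pair D, E or F. Ms4a7, a membrane protein of macrophages, was at 10.58 and 10.56 in pair A, 10.37 and 10.25 in pair B and 11.44 and 11.41 in pair C, against 8.15 to 9.43 in HER2, a difference of 1.96 ± 0.40 that held without each pair. The chemokine receptor Cx3cr1 was at 10.08 and 10.62 in pair C and 8.87 and 9.46 in pair A, against 7.08 to 7.98 in HER2, with pair B between them. Trem2 was at 9.55 and 9.41 in pair C, 8.52 and 8.45 in pair A and 7.28 and 7.34 in pair B, the last within the HER2 range of 7.08 to 7.83. Adgre1 (F4/80) rose by 0.92 ± 0.32, the lineage receptor Csf1r by 0.88 and Cd68 by 0.81. The calls of Cx3cr1, Trem2 and Adgre1 ended without pair C or F, and those of Trem2 and Adgre1 also without pair A, D or E.

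Endothelial markers were highest in pair A. All 20 members had a positive difference, with a median of 0.54. The transcription factors Sox18 (0.85 ± 0.28) and Erg (0.79 ± 0.28) rose. These 2 were 10.0%, near the 8.08% of all genes higher and below the 18.3% called in either direction. The list mean was 0.93 and 0.66 in pair A, -0.43 and -0.12 in pair B and 0.29 and -0.40 in pair C, against -0.63 to -0.21 in HER2. None was called in limma without pair A, D or E, the median without pair A was 0.22, and without pair B 8 were called. With arrays as separate replicates 11 passed. Of 8 neutrophil markers 2 were called (25%, against 18.3% of all genes). The receptor Csf3r rose by 0.93 and the collagenase Mmp8 fell by 1.25 on the log2 scale, and both calls ended without pair C or D, that of Mmp8 also without pair A or B.

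Some other genes among the 15 highest varied little over the MAP3K7 pairs. Gper1, a membrane receptor for oestrogen, was at 7.33, 7.57 and 7.88 (lowest, median and highest) in MAP3K7 and 4.89, 5.13 and 5.40 in HER2, a difference of 2.43 ± 0.35 (adjusted p = 2.74e-06). Sec16b, a protein of endoplasmic reticulum exit sites, was at 6.53, 7.05 and 7.83 against 4.25, 4.63 and 4.83. Calhm5, of the calcium homeostasis modulator family, was at 5.37, 6.02 and 6.53 against 3.14, 3.63 and 4.05. The groups lay over 1 log2 unit apart at their nearest arrays in each of these 3 genes, and the calls held without each pair. The urea transporter Slc14a1 differed: it was at 11.16 and 10.66 in pair B and 4.02 to 4.76 in the other 4 MAP3K7 arrays, against 3.48 to 3.71 in HER2, and without pair B its difference was 0.75 (adjusted p = 0.477, the highest over the pairs left out). HER2 had the lowest mean of the 13 groups in 12 of the 15 highest genes, and MAP3K7 the highest mean in 7, ranks that the choice by difference favours.

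**Figure D2:**
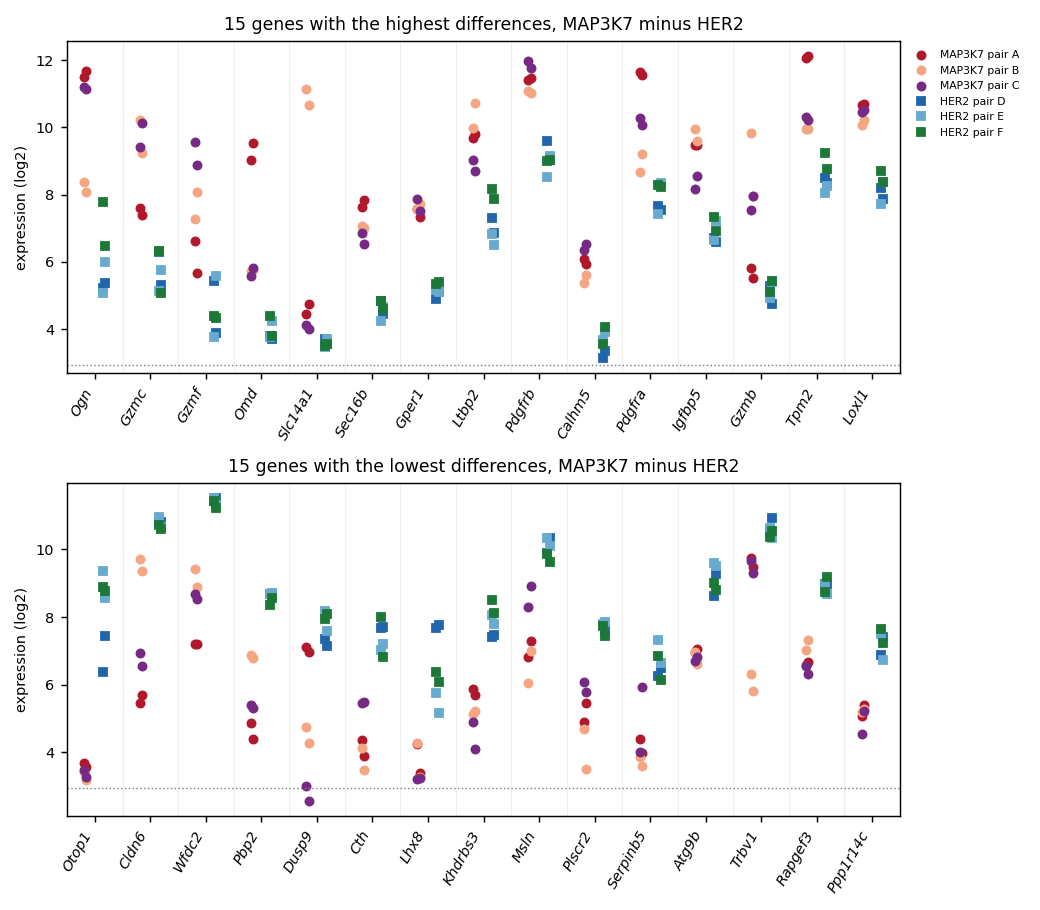
Expression (log2) in each array of called genes whose groups do not overlap, the 15 of highest difference in the upper panel and the 15 of lowest in the lower. Circles are the 6 MAP3K7 arrays in pairs A, B and C, squares the 6 HER2 arrays in pairs D, E and F, and the dotted line is the control level of 2.95; Slc14a1 is far up in pair B alone, and Otop1 lies near the control level in every MAP3K7 array.

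On the lower side, a proton channel and epithelial surface proteins led. Otop1 (chromosome 5, 38277404 to 38304217), a proton channel first known from the inner ear, was at 3.19 to 3.69 in MAP3K7, near the control level, and at 6.38 and 7.44 in pair D, 9.36 and 8.57 in pair E and 8.88 and 8.76 in pair F of HER2. The difference was -4.80 ± 0.71 (adjusted p = 4.05e-06), the largest of the named genes. Cldn6, a tight junction claudin of embryonic epithelium, was at 5.46 and 5.71 in pair A, 9.70 and 9.36 in pair B and 6.93 and 6.56 in pair C, and the HER2 arrays lay close together at 10.62 to 10.97. Wfdc2 (HE4), a secreted protein of glandular epithelium, was at 7.20 and 7.19 in pair A, 9.41 and 8.89 in pair B and 8.68 and 8.53 in pair C, against 11.21 to 11.51 in HER2. Pair B was nearest to HER2 in both genes, with differences over all pairs of -3.48 ± 0.66 and -3.09 ± 0.56. Mesothelin (Msln), a surface glycoprotein, was at 6.06, 7.14 and 8.93 in MAP3K7 and 9.62, 10.00 and 10.35 in HER2.

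Of 11 genes of keratinocytes and surface proteases, 4 fell (36.4%, against 10.2% of all genes) and none rose, with a median of -0.23. Besides Wfdc2 and Msln, both already named above by their difference, these were the membrane protease Tmprss11e and the epithelial surface protein Plet1. Of the 4 only Tmprss11e is a protease. The members were chosen with earlier results of these data known, so the share is a description and not an independent comparison with all genes. Tmprss2 (0.71), Spint2 (0.53), Muc1 (0.29), Tmprss4 (0.04), St14 (-0.002) and Spint1 (-0.45) did not pass. Of the 11 members 4 had a positive difference, and with arrays as separate replicates 2 rose and 5 fell. Tmprss11e was at 2.59 and 3.18 in pair A, 8.06 and 7.58 in pair B and 2.77 and 2.43 in pair C, against 7.81 to 9.33 in HER2. Pairs A and C were thus at or near the control level while pair B lay at the low end of the HER2 range, and the difference was -4.19 ± 1.12. Its call ended without pair A or C (adjusted p up to 0.0577 over the pairs left out). Plet1 was at 5.04 to 6.91 in MAP3K7 and 6.41 to 10.02 in HER2 and lost its call without pair B, C, D or F. Without pair C 2 members of the list fell. Maspin (Serpinb5), an epithelial serpin, was at 5.92 in T3 replicate 2 of pair C and 3.60 to 4.38 in the other 5 MAP3K7 arrays, against 6.14 to 7.32 in HER2.

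Of 17 luminal epithelial markers 1 rose and 2 fell, 17.6% called against 18.3% of all genes, a share near the background. E-cadherin (Cdh1), the adhesion protein of epithelial junctions, was at 5.92 and 5.98 in pair A, 3.73 and 3.98 in pair B and 6.74 and 6.80 in pair C, against 6.22 to 8.91 in HER2, a difference of -2.13 ± 0.63. Krt8 was at 12.68 and 12.62 in pair A, 11.83 and 11.70 in pair B and 12.23 and 12.18 in pair C, against 12.72 to 13.08 (difference -0.72 ± 0.20). Both were lowest in pair B and lost their calls without it, and Cdh1 also without pair D. Aldh1a3, a retinal dehydrogenase, was at 8.92 and 8.26 in pair A, 12.38 and 12.10 in pair B and 6.87 and 5.81 in pair C, against 4.54 to 6.13 in HER2. Its difference of 3.90 ± 0.88 over all pairs was 2.27 without pair B, where the call ended (adjusted p = 0.0714, the highest over the pairs left out). Of 13 basal and squamous markers 2 were called, 15.4% against the same 18.3%. Acta2 rose and stratifin (Sfn), a 14-3-3 protein of epithelium, fell by 1.95 on the log2 scale. Sfn was at 5.13 and 4.86 in pair B and 7.43 to 7.56 in pairs A and C, against 8.21 to 9.18 in HER2, and its call ended without pair B. Acta2 is also made by activated fibroblasts, whose markers were higher in these arrays. Epcam (0.16), Krt18 (-1.20, adjusted p = 0.196), Krt14 (-1.27, adjusted p = 0.301) and Krt5 (0.37) did not pass.

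Transcription and signalling genes were also among the 15 lowest. Dusp9, a phosphatase that inactivates MAP kinases, was at 7.10 and 6.97 in pair A, 4.75 and 4.28 in pair B and 3.01 and 2.57 in pair C, against 7.14 to 8.16 in HER2. Pair C lay at the control level, pair A just below the lowest HER2 array, and the difference was -2.94 ± 0.48. Lhx8, a LIM homeobox factor, was at 3.22 to 4.29 in MAP3K7, and at 7.69 and 7.76 in pair D, 5.74 and 5.16 in pair E and 6.37 and 6.07 in pair F; without pair D its call ended (adjusted p = 0.09, the highest over the pairs left out). Rapgef3 (EPAC1), a cAMP-activated exchange factor, was at 6.33, 6.63 and 7.31 (lowest, median and highest) against 8.67, 8.96 and 9.17. The RNA-binding protein Khdrbs3 differed by -2.74 and Ppp1r14c, an inhibitor of protein phosphatase 1, by -2.12. Pbp2, at 4.38 to 6.89 against 8.36 to 8.71, the scramblase family member Plscr2 (-2.62) and the autophagy gene Atg9b (-2.28) fell too. All of these except Lhx8 held without each pair. The T cell receptor segment Trbv1 was at 6.32 and 5.80 in pair B and 9.30 to 9.74 in the other MAP3K7 arrays, against 10.33 to 10.93 in HER2, while Cd3e was at 5.23 against 5.28 (means of MAP3K7 and HER2). Without pair B the difference of Trbv1 was -1.01 and its call ended. HER2 had the highest mean of the 13 groups in 6 of the 15 lowest genes and MAP3K7 the lowest mean in 5, ranks that the choice by difference favours.

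Genes for amino acid and serine synthesis, which the transcription factor ATF4 induces under amino acid shortage and stress, were lower. Of 24 genes of the unfolded protein response and ATF4 list, 11 fell and none rose, against 10.2% of all genes lower, and the median was -0.34. All 11 are the factor itself, Atf4 (-0.49), or genes known as its targets. The chaperones and the factor Xbp1 of the unfolded protein response did not pass, with Hspa5 at 0.09, Hsp90b1 at -0.16 and Xbp1 at -0.05. Psat1, of serine synthesis, was at 9.82 and 9.89 in pair A, 8.97 and 9.52 in pair B and 9.95 and 10.14 in pair C, against 11.04 to 11.27 in HER2, a difference of -1.44 ± 0.26 (adjusted p = 0.000102). Mthfd2 (-1.28), Shmt2 (-1.12) and Phgdh (-0.91) of serine and one-carbon metabolism, the asparagine synthetase Asns (-1.18) and the amino acid transporter subunit Slc3a2 (-0.38) fell with it. Chac1, which degrades glutathione, was at 7.46 and 7.28 in pair A, 7.02 and 8.18 in pair B and 6.80 and 6.77 in pair C, and 8.08 to 9.74 in HER2, where T1 replicate 2 was the lowest and alone overlapped with T3 replicate 1 of pair B (difference -2.02 ± 0.51). The pseudokinase Trib3 was at 5.85 and 5.67 in pair A, 7.50 and 8.73 in pair B and 6.72 and 5.68 in pair C, against 7.86 to 9.22 in HER2, so T3 replicate 1 of pair B lay within the HER2 range (difference -2.06 ± 0.61). Cth, which makes cysteine, belongs to the 15 lowest genes at 3.48 to 5.50 against 6.82 to 7.99, a difference of -2.93 ± 0.57. Between 7 and 11 members fell with 1 pair left out. Psat1, Chac1, Sesn2 and Cth held without each pair, Trib3 lost its call without pair A, C or F, and the lipoprotein receptor Vldlr (-1.65) without pair A, C, E or F.

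Promoters of these genes were searched because their members fell together. A window from 250 bases before to 50 after the start was taken from RefSeq (GRCm38.p6), and all 24 members had one. The core of the C/EBP-ATF response element, TGATGNAA on either strand, was in 5 of the 24 (20.8%) and in 3 of the 11 that fell, against 259 of 11111 promoters of tested genes (2.3%). A match is a description and not a binding site. Of the 4 members that fell most, Trib3 and Chac1 hold a match and are shown, and Vldlr and Psat1 hold none. Trib3 lies at chr2:152344011-152344310 on the minus strand and Chac1 at chr2:119350992-119351291 on the plus strand, printed 5′ to 3′ along the gene with the match in capitals.
Trib3: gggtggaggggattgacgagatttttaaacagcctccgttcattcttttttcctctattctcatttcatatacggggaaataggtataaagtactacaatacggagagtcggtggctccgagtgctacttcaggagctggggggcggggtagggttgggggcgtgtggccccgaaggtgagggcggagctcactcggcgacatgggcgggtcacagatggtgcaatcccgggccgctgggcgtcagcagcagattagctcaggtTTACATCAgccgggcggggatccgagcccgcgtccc
Chac1: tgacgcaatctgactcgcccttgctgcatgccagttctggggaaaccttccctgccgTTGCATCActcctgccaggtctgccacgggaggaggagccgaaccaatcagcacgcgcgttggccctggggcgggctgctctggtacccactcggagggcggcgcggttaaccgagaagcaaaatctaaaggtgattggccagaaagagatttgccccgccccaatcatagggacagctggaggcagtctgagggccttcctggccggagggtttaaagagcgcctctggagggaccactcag

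Hypoxia and glycolysis genes, induced by HIF when oxygen is short, were lower. Of 22 members 10 fell (45.5%, against 10.2% of all genes) and none rose, the median was -0.57, and all 22 had a negative difference. The carbonic anhydrase Car9 was at 7.47 and 6.23 in pair A, 5.68 and 5.82 in pair B and 8.60 and 7.74 in pair C, against 8.48 to 10.59 in HER2, where pair D was lowest (8.48 and 8.50). Its difference was -2.60 ± 0.76, and the groups overlapped only through T2 replicate 2 of pair C. Adm, a vasodilator peptide, differed by -1.92 ± 0.68, the HIF prolyl hydroxylase Egln3 by -1.88 ± 0.62 and the oxidase Ero1a by -1.27 ± 0.40. The glycolytic enzymes Hk2 (-0.74), Aldoa (-0.54), Pkm (-0.47), Pgam1 (-0.44), Ldha (-0.42) and Gapdh (-0.29) fell by smaller amounts. The glucose transporter Slc2a1 (-0.94, adjusted p = 0.0814) and Vegfa (-0.12) did not pass. The list mean was -0.86 to 0.04 in MAP3K7, lowest in T2 replicate 1 of pair A, and 0.11 to 0.79 in HER2, and the array means did not overlap. Only 1 member was called without pair A or F and 2 without pair E, and each of the 4 largest, Car9, Adm, Egln3 and Ero1a, lost its call without 3 or more of the pairs.

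The core of the hypoxia response element, ACGTG on either strand, was in 13 of the 21 members with a promoter (61.9%) and in 7 of the 10 that fell, against 2746 of 11111 (24.7%). It is also part of longer E-box sequences. The windows of Car9 (chr4:43506776-43507075 on the plus strand) and Egln3 (chr12:54203825-54204124 on the minus strand) are shown as examples, with the match in capitals. Both belong to the 4 members that fell most. Of these 4, Ero1a holds 1 match too and is not shown. Adm, which fell more than Egln3, holds none in its window.
Car9: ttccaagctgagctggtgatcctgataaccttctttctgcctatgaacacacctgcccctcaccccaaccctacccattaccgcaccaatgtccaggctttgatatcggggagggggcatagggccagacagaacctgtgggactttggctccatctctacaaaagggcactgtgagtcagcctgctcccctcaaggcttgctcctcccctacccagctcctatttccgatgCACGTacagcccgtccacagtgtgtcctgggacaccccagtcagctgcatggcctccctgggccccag
Egln3: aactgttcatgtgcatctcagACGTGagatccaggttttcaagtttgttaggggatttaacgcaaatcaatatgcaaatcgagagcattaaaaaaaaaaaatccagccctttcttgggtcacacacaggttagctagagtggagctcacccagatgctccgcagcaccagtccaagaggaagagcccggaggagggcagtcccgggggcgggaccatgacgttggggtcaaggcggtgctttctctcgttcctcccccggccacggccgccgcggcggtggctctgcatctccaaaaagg

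Lipid synthesis and p53 target genes were lower too. Of 24 genes of fatty acid and sterol synthesis 10 fell (41.7%, against 10.2% of all genes) and none rose, with a median of -0.46. The isoprenoid enzymes Fdps (-1.05 ± 0.27) and Idi1 (-0.96 ± 0.26), the sterol oxidase Msmo1 (-0.91 ± 0.26) and the elongase Elovl6 (-0.86 ± 0.32) changed most. Msmo1 was at 8.99 to 9.56 against 10.18 to 10.43 and Fdps at 9.10 to 10.38 against 10.65 to 11.07, with no overlap, and both held without each pair. The regulator of sterol genes Srebf2 fell by 0.76 on the log2 scale, and Fasn (-0.44) and Scd1 (0.06) did not pass. Idi1 lost its call without pair B and Elovl6 without any of the 6 pairs, and 5 members fell without pair B and 6 without pair D. A sterol response element, TCACNCCAC on either strand, was in the promoter of 1 of 19 members (5.3%) and in 122 of 11111 (1.1%).

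Of 16 p53 target and cell cycle inhibitor genes 6 fell (37.5%, against 10.2% of all genes) and none rose, with a median of -0.21. The cyclin Ccng1, a p53 target, was at 9.79 to 10.57 against 10.81 to 11.28 in HER2, a difference of -0.93 ± 0.14 (adjusted p = 3.68e-06). Sesn2, also on the ATF4 list, was at 6.50 to 6.89 against 7.13 to 7.73 (difference -0.88 ± 0.15). The stress gene Zmat3 (-0.76) and the p53 ubiquitin ligase Mdm2 (-0.66) fell as well. The cell cycle inhibitor p21 (Cdkn1a) was at 9.67 and 9.50 in pair A, 11.00 and 11.02 in pair B and 9.58 and 9.47 in pair C, against 10.74 to 11.06 in HER2, so pair B lay at the top of the HER2 range and the other 4 arrays below it. Its call (difference -0.88) ended without pair A or C (adjusted p up to 0.0545 over the pairs left out). Ccng1, Sesn2 and Zmat3 held without each pair.

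Proliferation genes were lower, by the most in pair B. Of 28 members 24 fell (85.7%, against 10.2% of all genes) and none rose, and the median was -0.62. The list mean was -0.87 and -1.26 in pair B, -0.03 and -0.01 in pair A and -0.28 and -0.10 in pair C, against 0.06 to 0.23 in HER2, with no overlap. Without pair B 4 members fell and the median was -0.25, 15 and 14 fell without pair D and pair E, and in a fit of the 12 arrays alone 1 fell. The mitotic checkpoint kinase Bub1 was at 9.46 and 9.08 in pair A, 8.34 and 7.96 in pair B and 9.12 and 9.19 in pair C, against 9.70 to 9.85 in HER2 (difference -0.90 ± 0.20, and -0.54 without pair B). The spindle motor Kif11 was at 7.60 and 7.56 in pair A, 6.23 and 6.11 in pair B and 7.53 and 7.55 in pair C, against 7.87 to 8.07 (difference -0.86 ± 0.20, and -0.40 without pair B, where its call ended). Aurkb, a kinase of chromosome segregation, fell by 0.84 on the log2 scale and cyclin Ccne2 by 1.18, and the proliferation marker Mki67 by 0.47. The G1/S genes Ccne1 (0.13) and Cdt1 (0.09) did not pass. Bub1 and Ccne2 held without each pair, and Aurkb lost its call without pair B.

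Cell cycle promoters often carry a CCAAT box and the cell cycle homology region TTTGAA, and both were searched on either strand in the 23 members with a promoter. The CCAAT box was in 18 (78.3%), against 4251 of 11111 (38.3%), and TTTGAA in 10 (43.5%), against 1340 (12.1%). Bub1 (chr2:127831810-127832109 on the minus strand) holds 2 CCAAT matches, and Kif11 (chr19:37376132-37376431 on the plus strand) holds 1 of each motif. The CCAAT matches are in capitals.
Bub1: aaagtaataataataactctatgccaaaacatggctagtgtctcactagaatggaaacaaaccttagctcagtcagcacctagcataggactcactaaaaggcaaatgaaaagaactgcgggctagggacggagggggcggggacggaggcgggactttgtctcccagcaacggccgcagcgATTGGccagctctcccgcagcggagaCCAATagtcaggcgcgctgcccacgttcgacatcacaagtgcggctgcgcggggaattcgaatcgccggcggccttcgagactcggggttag
Kif11: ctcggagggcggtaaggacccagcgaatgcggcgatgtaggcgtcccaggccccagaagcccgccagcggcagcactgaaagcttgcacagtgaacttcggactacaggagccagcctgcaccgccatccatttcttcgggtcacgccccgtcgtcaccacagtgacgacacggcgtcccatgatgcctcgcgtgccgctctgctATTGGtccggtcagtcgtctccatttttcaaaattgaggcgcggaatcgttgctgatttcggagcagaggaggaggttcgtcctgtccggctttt

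The pathway of the introduced kinase itself was examined by role. The 22 TAK1 signalling components had a median of -0.04. Their called share was 18.2%, near the 18.3% of all genes called in either direction, and 10.2% of all genes were lower. None rose and 4 fell. These were Map3k7, the NF-kB precursor Nfkb2 at -0.43 ± 0.14, the p38 kinase Mapk11 at -0.39 ± 0.14 and the JNK kinase Mapk9 at -0.32 ± 0.09. Mapk9 was at 8.40 to 8.64 against 8.73 to 8.95 in HER2, the only one of the 4 without overlap. It was called under 29 of 33 alternative settings, with a limma adjusted p of up to 0.871 in the others. None was called in limma without pair B, 1 without pair D or E and 2 without pair F. The binding partners Tab1 (0.31), Tab2 (-0.01) and Tab3 (-0.21), the ubiquitin ligase Traf6 (0.15) that activates TAK1, the IKK subunits Ikbkb (-0.05) and Ikbkg (0.30), the NF-kB subunit Rela (0.01), and the MAP2 kinases Map2k3 (-0.08), Map2k4 (-0.03) and Map2k6 (0.31) did not pass. Nor did the kinases Mapk8 (JNK1, 0.20) and Mapk14 (p38 alpha, 0.01).

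Downstream of TAK1, of 30 NF-kB target genes 1 rose, the activation marker Cd83, and none fell (3.3% called, against 18.3% of all genes), with a median of 0.09 that was -0.00 after median centring. Cd83 was at 8.39 and 7.83 in pair A, 7.61 and 6.78 in pair B and 8.65 and 8.38 in pair C, against 5.67 to 6.64 in HER2, a difference of 1.88 ± 0.52 that held without each pair. The inhibitor Nfkbia (0.06), the feedback enzyme Tnfaip3 (0.07), the chemokines Cxcl1 (-0.01) and Ccl2 (-0.34) and the cytokines Il6 (0.16) and Tnf (0.08) did not pass.

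Of 26 JNK, p38 and AP-1 response genes 4 rose and none fell, with a median of 0.11. Their share was 15.4%, against 8.08% of all genes higher and 18.3% called in either direction. Without pair B none rose and 5 fell, and the median was -0.05; between 1 and 2 rose without pair A, D, E or F. The collagenase Mmp13 was at 11.96 and 12.17 in pair A, 12.23 and 12.20 in pair B and 10.89 and 10.75 in pair C, against 9.18 to 10.16 in HER2, higher in every MAP3K7 array (difference 2.07 ± 0.67). The stromelysin Mmp3 was at 11.56 and 11.78 in pair A, 11.72 and 11.69 in pair B and 9.92 and 10.06 in pair C, the last within the HER2 range of 8.72 to 10.23. The MAP kinase phosphatase Dusp1 was at 9.59 and 9.56 in pair A, 10.05 and 10.53 in pair B and 8.54 and 8.45 in pair C, against 8.13 to 8.86. The early-response factor Egr1 was at 10.84 and 11.56 in pair B and 9.14 to 9.77 in the other MAP3K7 arrays, against 8.63 to 9.22. Each of the 4 lost its call without pair B (Mmp13 at 0.0908, Mmp3 at 0.139, Dusp1 at 0.242 and Egr1 at 0.405 by limma's adjusted p), and each also without some of the other pairs. The AP-1 subunits Fos (0.48), Jun (-0.45, adjusted p = 0.0811), Junb (0.15) and Fosl1 (-0.71, adjusted p = 0.0776) did not pass. The list mean was 0.76 and 0.96 in pair B, -0.41 to -0.21 in pairs A and C and -0.43 to 0.02 in HER2.

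Of 12 ERBB receptors and ligands tested, the receptor Egfr rose and the ligand Tgfa fell, a share of 16.7% called that lies near the 18.3% of all genes. Egfr was at 8.03 to 8.73 in MAP3K7 and 7.01 to 7.30 in 5 HER2 arrays, with T1 replicate 2 at 5.98, a difference of 1.34 ± 0.34 (adjusted p = 0.00368) that held without each pair. Tgfa was at 4.59 and 4.27 in pair A, 8.28 and 7.85 in pair B and 4.91 and 4.98 in pair C, against 6.67 to 8.19 in HER2, so pair B lay within or above the HER2 range and the other 4 arrays below it. Its difference of -1.73 ± 0.56 was -2.85 without pair B, and the call ended without pair A, C, D or E. The receptor Erbb3 (-0.05) and the ligands Btc (-1.01, adjusted p = 0.224), Ereg (0.07), Hbegf (-0.42) and Nrg1 (0.20) did not pass, nor did the feedback inhibitors Errfi1 (-0.38) and Lrig1 (-0.21).

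Of 19 genes of ERK output and feedback 5 fell and 1 rose (31.6% called, against 18.3% of all genes), with a median of -0.19, and without pair B 9 fell, none rose and the median was -0.59. Without pair A, C, E or F 2 to 3 fell. The list mean was 0.53 and 0.57 in pair B, above all HER2 arrays (0.01 to 0.16), and -0.52 to -0.43 in pairs A and C, below all of them. The receptor Epha2 was at 8.67 and 8.70 in pair A, 10.06 and 9.91 in pair B and 8.88 and 9.02 in pair C, against 9.81 to 10.53 in HER2 (difference -1.06 ± 0.21). Myc was at 9.47 to 9.76 against 10.11 to 10.45, with no overlap (difference -0.73 ± 0.18), and both held without each pair. The transcription factor Etv5 (-0.66 ± 0.22), cyclin Ccnd1 (-0.49) and the ERK inhibitor Spred2 (-0.41) fell, and Egr1, also on the AP-1 list, rose. The call of Etv5 ended without pair A, E or F. The feedback phosphatases Dusp4 (0.07) and Dusp6 (0.24) and the sproutys Spry2 (-0.06) and Spry4 (0.03) did not pass.

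Of 20 PI3K, AKT and FOXO genes 2 rose and 1 fell, with a median of 0.03, and the 15% called lie below the 18.3% of all genes. The regulatory subunit Pik3r3 was at 7.57 and 7.58 in pair A, 7.72 and 7.66 in pair B and 6.80 and 6.42 in pair C, against 5.53 to 6.09 in HER2, a difference of 1.48 ± 0.33 that held without each pair. The FOXO target Sesn1 rose by 0.90 and Klf6 fell by 0.53 on the log2 scale, and their calls ended without pair C and without pair A or D. Pik3ca (0.06), Akt1 (-0.25, adjusted p = 0.0906) and Foxo3 (0.11) did not pass.

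**Figure D3:**
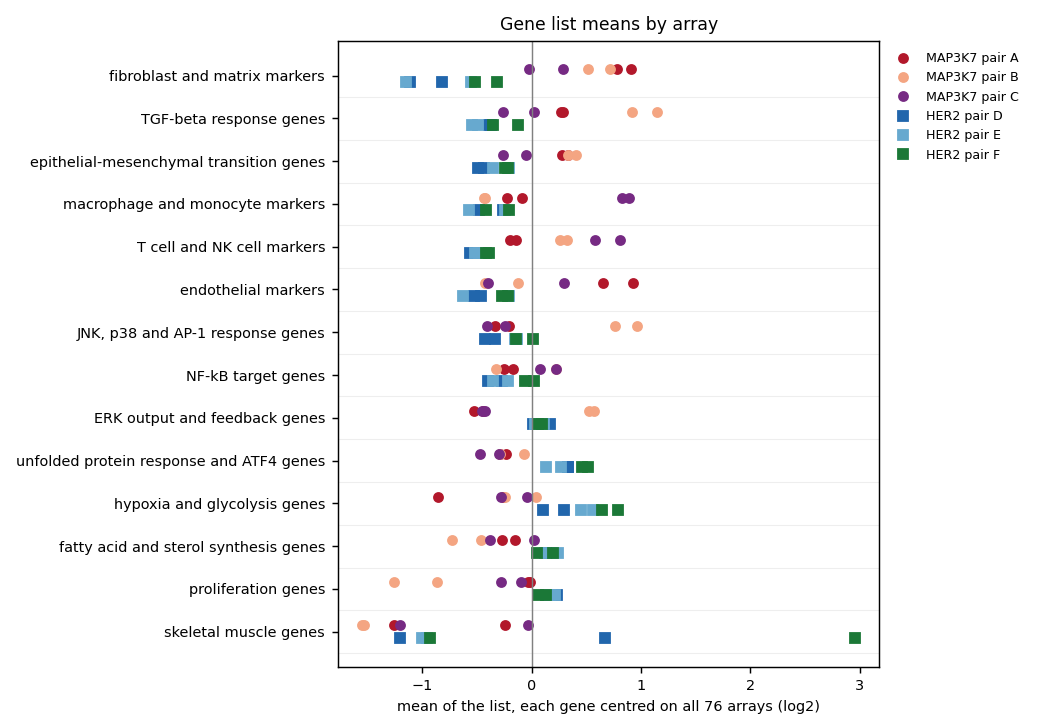
Mean of each gene list in each array (log2, every gene centred on all 76 arrays). Circles are MAP3K7 arrays in pairs A, B and C and squares HER2 arrays in pairs D, E and F; fibroblast, hypoxia, ATF4 and proliferation means do not overlap between the groups, while pair B lies above and the other MAP3K7 pairs below all HER2 arrays for ERK output.

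The MAP3K7 arrays differed among themselves more than the HER2 arrays did. The median SD over genes was 0.207 in MAP3K7 and 0.145 in HER2, and 815 genes spanned over 2 log2 units in MAP3K7 against 283 in HER2. In 117 genes both arrays of pair B lay at least 2 log2 units above the other 4 MAP3K7 arrays and in 21 genes that far below. For pair A these counts were 11 and 6, for pair C 6 and 9, and for the HER2 pairs at most 5 and 3. Among the 299 genes higher by 2-fold, all 3 MAP3K7 pair means were at least 2-fold above the HER2 mean in 83, and pair B alone was in 48. Among the 175 lower by 2-fold, all 3 pair means were that far below in 53, and pair B alone in 18. On the same side of the HER2 mean in all 3 pairs were 273 of the 299 and 164 of the 175.

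Genes with the widest range in MAP3K7, among those whose HER2 arrays spanned under 1.5, were chosen by that range and are described without a test. In all 12 pair B was highest. The secretogranin Scg2, of neuroendocrine granules, was at 11.70 and 11.39 in pair B and 3.11 to 4.51 in the other MAP3K7 arrays, against 3.38 to 3.90 in HER2. The Notch ligand relative Dlk1 was at 12.40 and 12.14 in pair B, 6.74 and 6.26 in pair A and 5.25 and 5.46 in pair C, against 5.22 to 5.67 in HER2. The cytokine Il11 was at 12.73 and 12.21 in pair B and 5.79 to 6.96 in the others, against 6.46 to 7.13. Neuropeptide Y (Npy) was at 11.40 and 10.91 in pair B and 4.64 and 4.87 in pair C, with T1 replicate 1 of pair A at 4.79, against 4.85 to 5.57. In these 4 genes both arrays of pair B lay far above every HER2 array. The other 4 MAP3K7 arrays lay within or near the HER2 range, except that pair A was above it for Dlk1 and pair C below it for Il11 (6.13 and 5.79).

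The collagenase Mmp1a (8.92 and 7.62) and the chloride channel regulator Clca3b (8.40 and 8.11) were seen above background in pair B, and their other MAP3K7 arrays lay around the control level (2.55 to 2.92 and 2.21 to 3.09). The Wnt antagonist Sfrp4 was at 12.30 and 11.59 in pair B, 8.27 and 7.29 in pair A and 6.70 and 6.16 in pair C. In Lratd1, Lgr6 and Prss12 pair B lay above HER2 and pair C below it. Lratd1 was at 7.03 and 7.85 in pair A, 11.12 and 11.03 in pair B and 3.79 and 4.51 in pair C, against 6.58 to 7.79 in HER2. The stem cell receptor Lgr6 was at 6.78 and 6.67 in pair A, 10.32 and 10.28 in pair B and 4.87 and 4.31 in pair C, against 7.80 to 8.86. The protease Prss12 was at 6.11 and 5.83 in pair A, 10.78 and 10.72 in pair B and 4.88 and 5.40 in pair C, against 6.06 to 7.47. The mast cell protease Mcpt1 was at 4.08 and 3.23 in pair A, 9.03 and 6.99 in pair B and 4.51 and 3.90 in pair C, against 4.70 to 5.84. The group differences of Lratd1 (0.36), Lgr6 (-1.29), Prss12 (0.45) and Mcpt1 (-0.09) average over pairs on both sides of HER2.

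**Figure D4:**
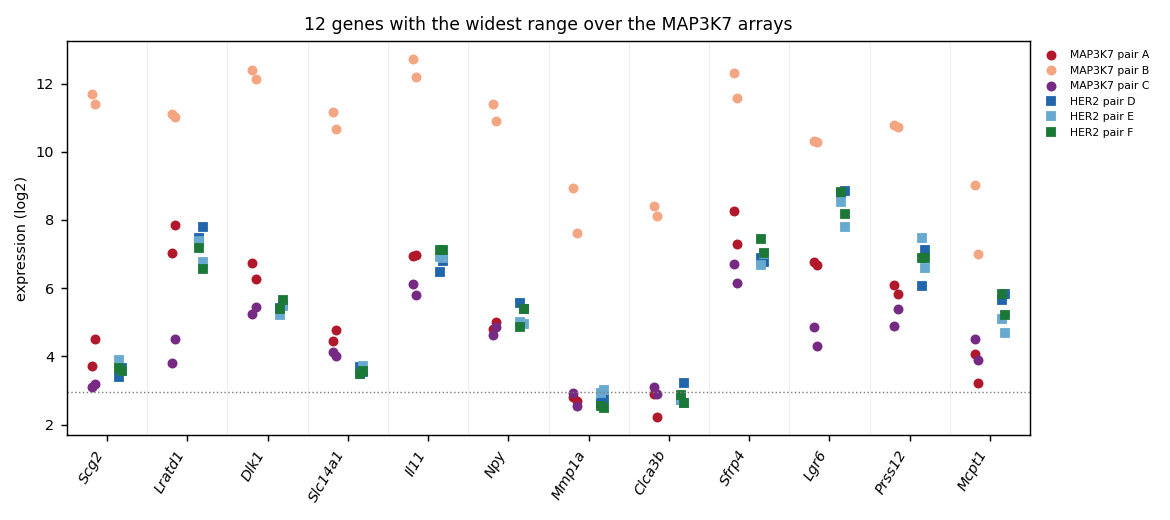
Expression (log2) in each array of the 12 genes with the widest range over the 6 MAP3K7 arrays, among genes whose HER2 arrays span under 1.5. Circles are MAP3K7 pairs A, B and C, squares HER2 pairs D, E and F, and the dotted line is the control level of 2.95; both arrays of pair B are highest among the MAP3K7 arrays in each gene.

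By chromosome, the direction of the differences was uneven on several, with 44.3% of all called genes higher. Calls were 18 higher and 66 lower on chromosome X and 25 and 75 on chromosome 19. They were 55 and 119 on chromosome 1, 28 and 64 on chromosome 13 and 47 and 23 on chromosome 16. Chromosome 8 had the highest median difference. Of its 726 tested genes 17.6% were called, against 18.3% of all genes, 102 higher and 26 lower, with a median difference of 0.10, which was 0.02 without pair A. The chromosome's median, each gene centred on all arrays, was 0.20 and 0.27 in pair A and between -0.10 and 0.06 in the other 10 arrays. Chromosome 15 was at 0.14 in both arrays of pair A and at 0.12 and 0.20 in pair F of HER2, and at -0.10 to -0.01 in the rest. Chromosome 8 carries Mmp2, Cdh11, Cdh1 and Msmo1, all described above. All 4 were called without pair A too.

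**Figure D5:**
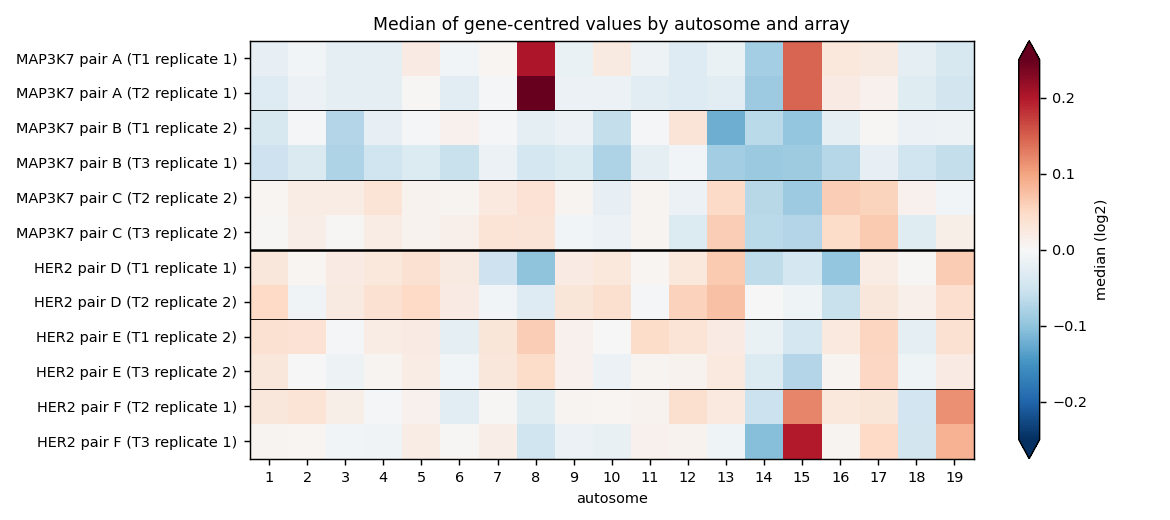
Median over the genes of each autosome of the gene-centred values (log2, colour) in the 12 arrays, ordered by pair, with MAP3K7 above the thick line and HER2 below it. The 2 arrays of a pair show like patterns because they were matched on these medians. Chromosome 8 is high in pair A (0.20 and 0.27) and chromosome 15 in pairs A and F.

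No member of the lists of oxidative phosphorylation (31), class I antigen processing (12), milk proteins (8) and adipocyte genes (12) was called in limma with pairs as a block. With arrays as separate replicates 4, 2, 3 and 0 members were, and 1, 2, 2 and 0 had an unadjusted p under 0.05. Of all genes 18.3% were called with pairs as a block and 36.5% with arrays as separate replicates. Among 24 interferon response genes only Isg20, an RNA exonuclease, was called (-0.78), and its list means ran from -0.82 to 0.44 in MAP3K7 and -1.22 to -0.04 in HER2. Of 11 class II genes the costimulator Cd80 fell by 0.95 on the log2 scale. Calls of Isg20 and Cd80 ended without 3 and 6 of the pairs. The serpin Serpinf1 (PEDF), an inhibitor of vessel growth and the only one of 11 serpins to rise (Serpinb5 and Serpinb6a fell), was at 12.13 and 12.10 in pair A, 11.85 and 12.04 in pair B and 10.09 and 9.39 in pair C, against 8.75 to 10.18 in HER2 (difference 1.79 ± 0.38). Of 18 secreted factors linked to wasting, the activin subunit Inhba rose, at 12.94 and 12.87 in pair B, 11.42 and 11.46 in pair A and 10.13 and 10.12 in pair C against 9.84 to 10.62, and the TWEAK receptor Tnfrsf12a fell by 0.41 on the log2 scale. Pair C lay below most HER2 arrays for Inhba, and without pair B its difference was 0.43 (adjusted p = 0.429, the highest over the pairs left out). Tnfrsf12a lost its call without pair A, C or E. The share called was 4.2% of the interferon list, 9.1% of class II genes, 27.3% of serpins and 11.1% of wasting-linked factors. Of all genes 18.3% were called.

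Skeletal muscle RNA varied between single arrays. The muscle list mean was 2.96 in HER2 T2 replicate 1 and 0.67 in HER2 T2 replicate 2, and -1.55 to -0.04 in the other 10 arrays. All 24 members had a negative difference (median -0.97), and 1 was called (4.2%, against 18.3% of all genes), Eno3, the muscle form of enolase. Eno3 was at 11.14 and 11.02 in pair A, 8.96 and 9.30 in pair B and 11.59 and 11.54 in pair C, against 11.89 to 12.22 in HER2, so it was lowest in pair B and did not follow the muscle mean over the HER2 arrays. With that mean as a covariate 2448 genes were called, of which 2370 were called without it.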

How the data were processed

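The 12 arrays compared are Affymetrix arrays of total RNA, labelled by the standard protocol per the labels' protocols. The deposited values are log2 expression of 45101 probe sets in 76 arrays. Per the submitters' processing notes affy was used (version not given), and how the authors normalized the values is not stated there. The values were used as deposited (lower quartiles of the arrays 3.70 to 3.92).

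Of the probe sets, 34958 name 1 gene, 932 several and 9211 none in the platform annotation, and 34754 were found in RefSeq's GRCm38.p6 annotation, with 0 symbols changed. For each of 18194 genes the probe set of highest mean over all arrays was kept. Genes above the array's 40th percentile in 4 or more arrays were tested, which left 13868.

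All 76 arrays were fitted by limma 3.58.1 (statmod 1.5.0, R 4.3.3) with the introduced gene and T label as terms and pairs of arrays as a random block, with two-sided moderated tests and Benjamini-Hochberg adjustment over all genes tested (called under 0.05). Pairs were matched within groups by the correlation of gene-centred medians of 19 autosomes over 13372 genes. In all 38 pairs the T labels differ. The title's replicate numbers do not mark these pairs. The fit was checked on simulated data.

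Named are the 15 highest and 15 lowest called genes whose groups do not overlap and whose higher mean is above the control level, up to 4 called members of each of 31 lists, the TAK1 and ERBB lists and the 12 genes of widest MAP3K7 range. Other list members are named as examples or as members that did not pass. The members and lists were chosen with earlier results of these data known. Lists got no test, and their shares of called members are descriptions that are not independent of these data. Promoters are RefSeq windows, the first listed for each gene. One gene is not reported here.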

Additional observations from a re-analysis of the deposited data

Results flagged for a closer look

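Single arrays that stood apart from the other 5 of their group were sought in 99 named genes and 31 gene lists plus the 12 genes of widest range, by Dixon's ratio at the 95% level. Of 282 groups of 6 arrays 14 were found, and chance gives about 1 in 20. The groups hold pairs of similar arrays, which the ratio does not take into account.

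In MAP3K7, Serpinb5 was at 5.92 in T3 replicate 2 (3.60 to 4.38 in the other 5), and the basal and squamous list mean was 1.47 in the same array (-0.14 to 0.38). Ppp1r14c was low in T2 replicate 2 at 4.55 (5.08 to 5.39), and Sesn2 was high there at 6.89 (6.50 to 6.63). Myc was at 9.76 in T3 replicate 1 (9.47 to 9.57), Lox at 9.87 in T1 replicate 2 (10.47 to 10.61), and the hypoxia and glycolysis list mean at -0.86 in T2 replicate 1 (-0.28 to 0.04).

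In HER2, T1 replicate 2 was low for Egfr at 5.98 (7.01 to 7.30) and for Chac1 at 8.08 (9.19 to 9.74). T1 replicate 1 was low for Etv5 at 8.12 (8.56 to 8.67) and high for Ccne2 at 8.09 (7.47 to 7.65). Mapk9 was at 8.73 in T3 replicate 2 (8.87 to 8.95), Nkg7 at 4.69 in T3 replicate 1 (4.33 to 4.44), and the mean of the secreted wasting-linked factors at -0.54 in T2 replicate 2 (-0.23 to -0.07).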

How the results depend on the processing

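The count of called genes was 2531 (1121 higher, 1410 lower, 138 list members). It was 5056 (2277 and 2779, 207 list members) with arrays as separate replicates, 1172 (526 and 646, 75) at an adjusted p under 0.01, and 686 (334 and 352, 36) in a fit of the 12 arrays alone, where fewer arrays estimate the spread. The main fit takes 1 spread per gene for all 13 groups, and the median SD over genes was 0.207 in MAP3K7 and 0.145 in HER2. Without pair D the count of called genes was 1603 (706 and 897), and without pair E 1624 (738 and 886, 89 list members). Median centring gave 2256 lower and 789 higher. Leaving out 1 array gave 2167 to 2631. With the T label and the title's replicate number combined as a fixed term in place of the T term, 2456 were called. The pairs stayed the random block in that fit. No T term gave 2534, the mean of each pair 1836 and array weights 2949. Without pair B 2011 were called, of which 1444 were among the 2531. The mean of all probe sets of a gene gave 2467, of which 2066 were among the 2531. The most variable probe set gave 2629, of which 2139 were. Of 99 named genes, 45 stayed called with each of the 6 pairs left out in turn, and 81 with each array left out in turn. In the fit of the 12 arrays alone 61 of the 99 lost their call, with the mean of each pair 31, and at an adjusted p under 0.01 36. With the mean of all probe sets 10 lost it, and with the most variable probe set 6. None changed direction under any alternative. The cause of these changes was not tested.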
